A study of Mus musculus with 8 samples.

Results

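The Hedgehog pathway was described in 4 stromal populations of neonatal mouse bone through 9 of its genes. They were the ligand gene *Dhh*, the receptor genes *Ptch1* and *Smo*, the coreceptor genes *Boc* and *Gas1*, the antagonist gene *Hhip* and the transcription factor genes *Gli1*, *Gli2* and *Gli3*. They were taken by symbol from a normalized table of 15880 genes, and each of the 9 had a single row. In this pathway, a secreted Hedgehog protein binds Ptch1 and so releases Smo, which turns the Gli factors toward activating transcription. *Ptch1*, *Hhip* and *Gli1* are themselves classic targets of the pathway, so that responding cells also make proteins that limit the signal. Desert hedgehog, the product of *Dhh*, is known as a Schwann cell ligand for the perineurial sheath of nerves, whereas Indian hedgehog serves the growth plate of bone.

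The cells came from pups heterozygous for *Nes-Gfp* on a C57BL/6 background on postnatal day 1, in which regulatory elements of the rat nestin gene drive GFP. Per the labels, each library came from collagenase-digested bones of a pool of 3 pups, and libraries with the same replicate number were taken to share that pool. From each population 15000 to 80000 cells negative for CD45, CD31 and Ter119 were sorted by GFP and surface Pdgfrα. The 4 populations, GFP+ Pdgfrα-, GFP+ Pdgfrα+, GFP- Pdgfrα+ and GFP- Pdgfrα-, had 2 libraries each, 8 in all, made from amplified cDNA. Reads recovered from the normalized signal summed to between 3221217 and 5302762 per library over the genes in the table. Read counts and shares of reads below refer to these. The normalized signal is the reads of a gene plus 0.5 per 1000000 of the effective library size. In such bulk samples, fewer cells of a type and less RNA per cell cannot be told apart. The replicates of a population are separate pools, so that the spread covers pools of pups and not single animals.

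The transcript of the sorted surface protein followed its label. *Pdgfra* had signals of 18.1 and 10.4 in GFP+ Pdgfrα-, 733 and 754 in GFP+ Pdgfrα+, 839 and 794 in GFP- Pdgfrα+ and 3.30 and 4.36 in GFP- Pdgfrα- cells. *Nes*, the mouse nestin gene, had signals of 149 and 176 in GFP+ Pdgfrα-, 57.6 and 72.0 in GFP+ Pdgfrα+, 27.4 and 47.1 in GFP- Pdgfrα+ and 3.59 and 9.08 in GFP- Pdgfrα- cells. The GFP+ libraries lay above the GFP- libraries of the same Pdgfrα class in every case. Between the Pdgfrα+ populations this difference of *Nes* did not pass the limma test at an adjusted p of at most 0.05.

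The GFP- Pdgfrα- libraries stood apart from the rest. Their 4 blood cell markers summed to 5899 and 11158, against 75.5 and 46.6 in GFP+ Pdgfrα-, 21.3 and 29.3 in GFP+ Pdgfrα+ and 29.8 and 24.7 in GFP- Pdgfrα+ cells. *Hbb-b1*, a beta-globin gene, was the most abundant of them, and all 4 were above 3 reads in both GFP- Pdgfrα- libraries. The globin genes *Hba-a1* and *Hbb-b1* made up 0.504 and 0.891% of their reads although the sort had removed Ter119+ cells. The mitochondrial ribosomal RNA *mt-Rnr2* made up 27.2 and 29.1% of these libraries' reads, against 17.6 and 15.6% in GFP+ Pdgfrα-, 9.52 and 10.3% in GFP+ Pdgfrα+ and 10.8 and 10.8% in GFP- Pdgfrα+ cells. The GFP+ Pdgfrα- libraries thus also lay above both Pdgfrα+ populations in this RNA. The part of this RNA in the Hedgehog differences was not tested. In the GFP- Pdgfrα- libraries 8 of the 9 genes still had more than 3 reads in at least 1 library, *Hhip* being the exception.

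The GFP+ Pdgfrα- libraries carried markers of several cell types. The 10 Schwann cell lineage markers summed to 483 and 436 in GFP+ Pdgfrα-, 207 and 183 in GFP+ Pdgfrα+, 80.7 and 90.0 in GFP- Pdgfrα+ and 35.0 and 54.2 in GFP- Pdgfrα- cells. *Erbb3*, a neuregulin receptor gene, was the most abundant of these in GFP+ Pdgfrα- cells, while *Gfap* of mature Schwann cells stayed at or under 3 reads in both libraries. *Gfap* was instead highest in GFP- Pdgfrα- cells, with 0.364 and 0.129 in GFP+ Pdgfrα-, 0.138 and 1.58 in GFP+ Pdgfrα+, 1.39 and 1.34 in GFP- Pdgfrα+ and 5.89 and 10.97 in GFP- Pdgfrα- cells. In the same list *Ngfr* and *S100b* had lower signals in both GFP+ Pdgfrα- libraries than in any Pdgfrα+ library. *Ngfr*, a neurotrophin receptor gene, had signals of 33.6 and 23.3 in GFP+ Pdgfrα-, 94.6 and 109 in GFP+ Pdgfrα+, 59.1 and 49.5 in GFP- Pdgfrα+ and 2.44 and 2.71 in GFP- Pdgfrα- cells, and *S100b* had 4.73 and 2.44 in GFP+ Pdgfrα-, 9.80 and 10.2 in GFP+ Pdgfrα+, 6.93 and 16.2 in GFP- Pdgfrα+ and 1.58 and 1.06 in GFP- Pdgfrα- cells. In GFP- Pdgfrα+ cells *Sox10*, *Foxd3*, *Cdh19* and *Fabp7* were at or under 3 reads in both libraries.

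The sums of mural and muscle markers were also highest in GFP+ Pdgfrα- cells. The 5 pericyte and smooth muscle markers summed to 1741 and 2259.6 in GFP+ Pdgfrα-, 391 and 299.7 in GFP+ Pdgfrα+, 317 and 336 in GFP- Pdgfrα+ and 72.8 and 112 in GFP- Pdgfrα- cells, with *Rgs5* the most abundant in GFP+ Pdgfrα- cells. Within this list *Cspg4*, the NG2 proteoglycan gene, had another order, with 104 and 147 in GFP+ Pdgfrα-, 205 and 146 in GFP+ Pdgfrα+, 255 and 259.7 in GFP- Pdgfrα+ and 10.5 and 27.7 in GFP- Pdgfrα- cells. The 4 muscle precursor markers summed to 585 and 664 in GFP+ Pdgfrα-, 41.7 and 34.8 in GFP+ Pdgfrα+, 16.4 and 15.1 in GFP- Pdgfrα+ and 5.17 and 5.42 in GFP- Pdgfrα- cells, with *Pax7* the most abundant in GFP+ Pdgfrα- cells. *Myf5* and *Myod1* were at or under 3 reads in both GFP- Pdgfrα+ and both GFP- Pdgfrα- libraries. Which of these cells carried *Dhh* cannot be told apart in bulk RNA.

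**Figure D1:**
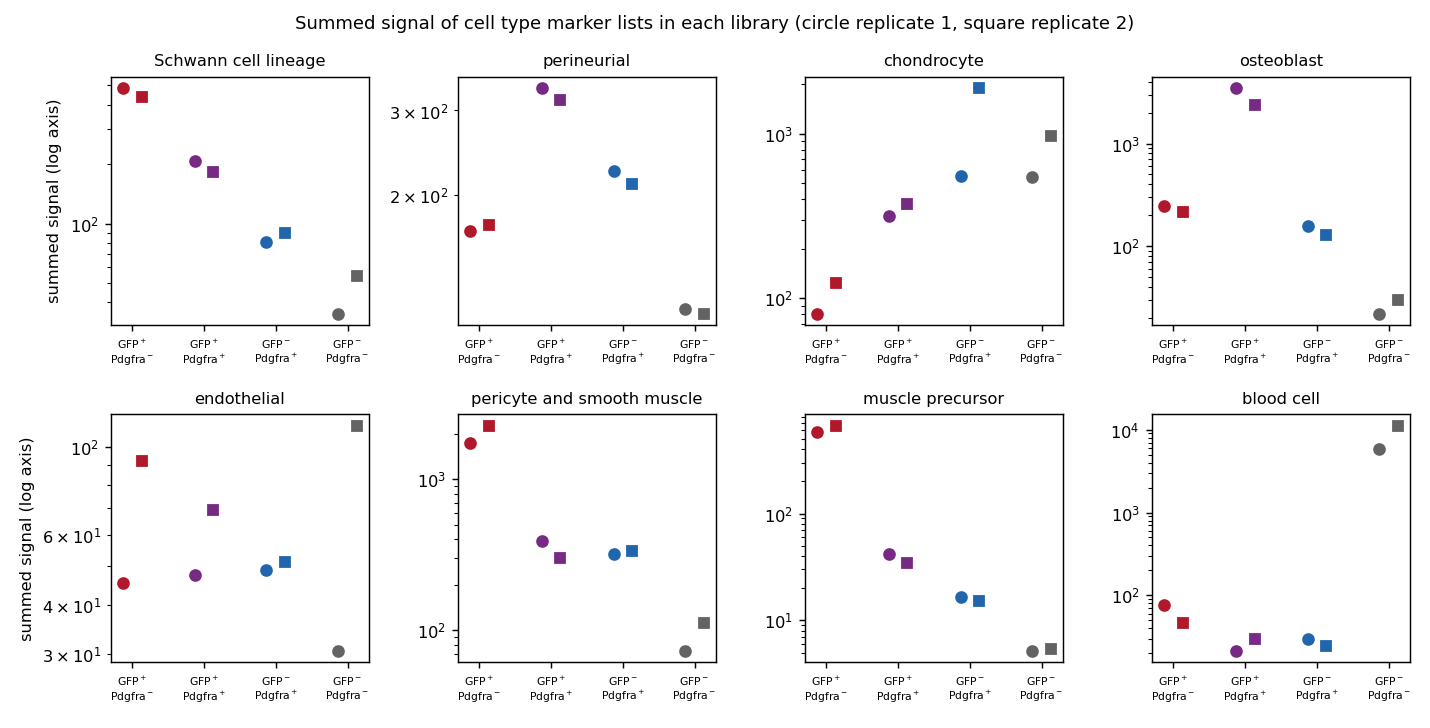
Summed normalized signal (log axis) of 8 cell type marker lists in each of the 8 libraries, with populations on the horizontal axis, circles for replicate 1 and squares for replicate 2. Schwann cell lineage, mural and muscle precursor sums are highest in the GFP+ Pdgfrα- libraries, and blood cell sums in the GFP- Pdgfrα- libraries.

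*Dhh*, the ligand gene (ENSMUSG00000023000, chr15:98723462-98728971, minus strand, build NCBIM37), was highest in GFP+ Pdgfrα- cells. Its signal was 28.0 and 24.1 in GFP+ Pdgfrα-, 3.73 and 5.32 in GFP+ Pdgfrα+, 0.126 and 1.93 in GFP- Pdgfrα+ and 0.431 and 1.30 in GFP- Pdgfrα- cells. Both GFP+ Pdgfrα- libraries lay above the other 6, both GFP+ Pdgfrα+ libraries lay above the 4 GFP- libraries, and the GFP- populations overlapped. The values rest on 115 and 93 reads in GFP+ Pdgfrα-, 13 and 18 in GFP+ Pdgfrα+, 0 and 6 in GFP- Pdgfrα+ and 1 and 5 in GFP- Pdgfrα- cells. The ratio of reads between GFP+ Pdgfrα- and GFP+ Pdgfrα+ cells, scaled for library size, was 5.95 (95% counting interval 4.07 to 8.98). Against GFP- Pdgfrα+ cells the ratio was 31.8 (14.3 to 87.5), and against GFP- Pdgfrα- cells it was 33.4 (15.1 to 92.2). These intervals treat each read as independent, which reads of amplified cDNA are not, and cover no spread between pools. They are therefore too narrow, as are the counting intervals of *Hhip* below. Between the 2 libraries of a population, the chi-square per degree of freedom over genes with enough reads was 4.15 to 9.21, more than counting error gives. The ratios over the GFP- populations each rest on 6 reads in the lower population. Over the alternative fits described below, the log2 fold change of *Dhh* ranged from 3.20 to 5.80 over GFP- Pdgfrα+ cells. Over GFP- Pdgfrα- cells it ranged from 3.44 to 5.02. The study named *Dhh* for GFP+ Pdgfrα- cells from these same samples, so that its levels are given as a description without a test, and it is left out of the counts of genes that passed a test below. *Ihh* and *Shh*, the other Hedgehog ligand genes, were not analysed here.

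**Figure D2:**
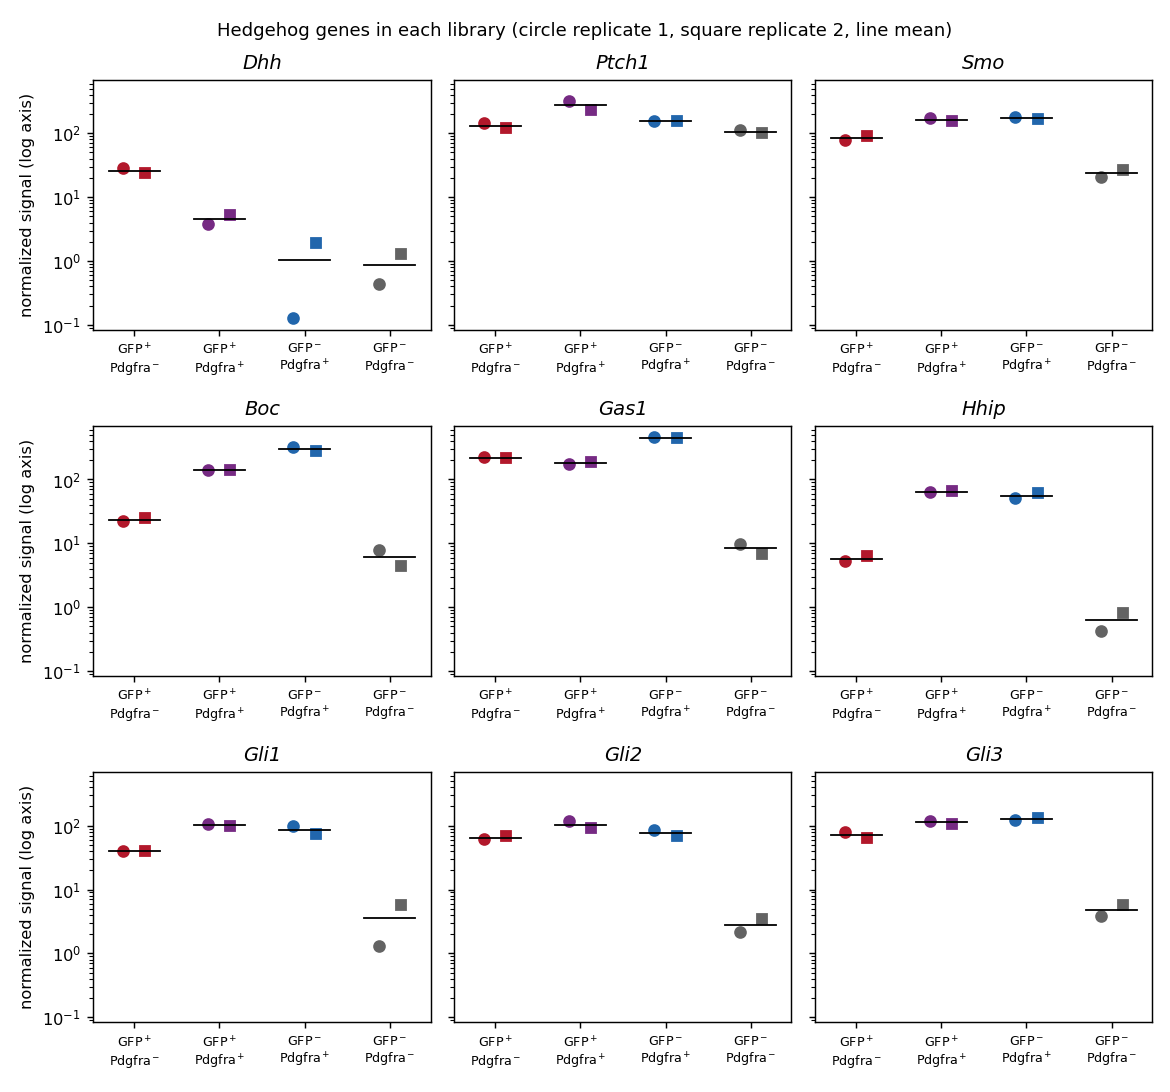
Normalized signal (log axis) of the 9 Hedgehog genes in each library, with populations on the horizontal axis, circles for replicate 1, squares for replicate 2 and a line at the mean. *Dhh* is highest in the GFP+ Pdgfrα- libraries, while *Boc*, *Hhip* and *Gli1* are higher in both Pdgfrα+ populations.

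*Ptch1*, the Hedgehog receptor gene and a pathway target, was highest in GFP+ Pdgfrα+ cells. It had signals of 142 and 122 in GFP+ Pdgfrα-, 319.7 and 231 in GFP+ Pdgfrα+, 157 and 158 in GFP- Pdgfrα+ and 112 and 100.3 in GFP- Pdgfrα- cells. The GFP+ Pdgfrα+ libraries lay above all others, and those of GFP- Pdgfrα+ cells were close to each other. Unlike the *Gli* genes, *Ptch1* kept a signal of at least 100.3 in every library, those of GFP- Pdgfrα- cells included. It was lower in GFP+ Pdgfrα- cells than in GFP+ Pdgfrα+ cells (log2 fold change on the log2(signal + 1) scale, ± SE of the limma fit, -1.04 ± 0.16, adjusted p = 0.000677). Between the Pdgfrα+ populations it was higher in GFP+ Pdgfrα+ cells (0.78 ± 0.16, adjusted p = 0.0159). That call was lost without GFP+ Pdgfrα+ replicate 1 (0.55, adjusted p = 0.129) and without either GFP- Pdgfrα+ library (0.78 and 0.78, adjusted p = 0.128 and 0.125). The differences of GFP+ Pdgfrα- cells from GFP- Pdgfrα+ cells (-0.26 ± 0.16, adjusted p = 0.276) and from GFP- Pdgfrα- cells (0.31 ± 0.16, adjusted p = 0.131) did not pass the test, and the latter turned direction with centring (-0.14, adjusted p = 0.488).

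*Smo*, which encodes the signal-transducing protein that Ptch1 restrains, was higher in both Pdgfrα+ populations. Its signal was 77.3 and 90.7 in GFP+ Pdgfrα-, 171 and 155 in GFP+ Pdgfrα+, 178 and 169 in GFP- Pdgfrα+ and 20.5 and 26.5 in GFP- Pdgfrα- cells. The Pdgfrα+ populations overlapped, GFP+ Pdgfrα- libraries lay under them, and GFP- Pdgfrα- libraries lay lowest. *Smo* was lower in GFP+ Pdgfrα- cells than in GFP+ Pdgfrα+ cells (-0.95 ± 0.16, adjusted p = 0.00127) and than in GFP- Pdgfrα+ cells (-1.04 ± 0.16, adjusted p = 0.000534). It was higher in GFP+ Pdgfrα- cells than in GFP- Pdgfrα- cells (1.80 ± 0.16, adjusted p = 1.86e-06).

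The coreceptor genes *Boc* and *Gas1*, whose proteins help Ptch1 bind the ligand, were highest in GFP- Pdgfrα+ cells. *Boc* had signals of 22.5 and 24.6 in GFP+ Pdgfrα-, 141 and 139.9 in GFP+ Pdgfrα+, 324 and 281 in GFP- Pdgfrα+ and 7.90 and 4.36 in GFP- Pdgfrα- cells. None of the 4 populations overlapped for it, and GFP+ Pdgfrα- cells lay far under both Pdgfrα+ populations. It was lower in GFP+ Pdgfrα- cells than in GFP+ Pdgfrα+ cells (-2.53 ± 0.22, adjusted p = 8.25e-06) and than in GFP- Pdgfrα+ cells (-3.63 ± 0.22, adjusted p = 3.2e-07). *Boc* was also lower in GFP+ Pdgfrα+ cells than in GFP- Pdgfrα+ cells (-1.10 ± 0.22, adjusted p = 0.0136), a call lost without any 1 of the 4 libraries compared (-1.20 to -0.996, adjusted p = 0.0834 to 0.158).

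*Gas1* followed another order among the populations. Its signal was 221 and 215 in GFP+ Pdgfrα-, 172 and 191 in GFP+ Pdgfrα+, 456 and 441 in GFP- Pdgfrα+ and 9.91 and 6.72 in GFP- Pdgfrα- cells. The GFP- Pdgfrα+ libraries lay above all others, GFP+ Pdgfrα- libraries lay above those of GFP+ Pdgfrα+ cells without overlap, and GFP- Pdgfrα- libraries were lowest. It was lower in GFP+ Pdgfrα- cells than in GFP- Pdgfrα+ cells (-1.04 ± 0.17, adjusted p = 0.000633) and lower in GFP+ Pdgfrα+ cells than in GFP- Pdgfrα+ cells (-1.30 ± 0.17, adjusted p = 0.000864). The difference between GFP+ Pdgfrα- and GFP+ Pdgfrα+ cells did not pass the test (0.27 ± 0.17, adjusted p = 0.291). Per kilobase of exon, *Gas1* had the highest mean signal of the 4 receptor and coreceptor genes among the 9 in GFP+ Pdgfrα- cells, 73.7 ± 1.46 (SD, n = 2), against 22.2 ± 2.50 for *Smo*, 20.1 ± 2.24 for *Ptch1* and 5.28 ± 0.335 for *Boc*.

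*Hhip*, which encodes a membrane protein that binds Hedgehog ligands and limits their action, had its high values in the Pdgfrα+ populations. Its signal was 5.22 and 6.30 in GFP+ Pdgfrα-, 62.6 and 64.8 in GFP+ Pdgfrα+, 51.1 and 61.0 in GFP- Pdgfrα+ and 0.431 and 0.825 in GFP- Pdgfrα- cells. Both Pdgfrα+ populations lay well above the Pdgfrα- ones, and GFP- Pdgfrα- libraries had 1 and 3 reads. *Hhip* was lower in GFP+ Pdgfrα- cells than in GFP+ Pdgfrα+ cells (-3.26 ± 0.28, adjusted p = 6.9e-06) and than in GFP- Pdgfrα+ cells (-3.08 ± 0.28, adjusted p = 7.83e-06). The ratio of reads between GFP+ Pdgfrα+ and GFP+ Pdgfrα- cells was 11.3 (95% counting interval 8.31 to 15.7), and that between GFP+ Pdgfrα- and GFP- Pdgfrα- cells was 10.9 (3.96 to 41.5). For the latter comparison the fitted log2 fold change was 2.06, over a range of 1.61 to 3.30 in the alternatives. Between the Pdgfrα+ populations the difference did not pass the test (0.19 ± 0.28, adjusted p = 0.785).

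*Gli1*, the factor whose transcription is used as a readout of pathway activity, was highest in the Pdgfrα+ populations. Its signal was 40.2 and 40.0 in GFP+ Pdgfrα-, 108 and 100.2 in GFP+ Pdgfrα+, 97.2 and 74.1 in GFP- Pdgfrα+ and 1.29 and 5.78 in GFP- Pdgfrα- cells. The GFP+ Pdgfrα+ libraries lay just above those of GFP- Pdgfrα+ cells, GFP+ Pdgfrα- libraries at less than both, and GFP- Pdgfrα- libraries lowest. Its exons overlap those of *Arhgap9* on the opposite strand, so that reads of the pair cannot be told apart without strand. *Gli1* was lower in GFP+ Pdgfrα- cells than in GFP+ Pdgfrα+ cells (-1.35 ± 0.38, adjusted p = 0.0217). That call was lost without any 1 of the 4 libraries compared (-1.41 to -1.30, adjusted p = 0.0892 to 0.128) and with a pseudocount of 0.1 (-1.37, adjusted p = 0.0782), over a range of 7.21e-05 to 0.128 in the alternatives.

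Against GFP- Pdgfrα+ cells, *Gli1* was lower in both GFP+ Pdgfrα- libraries without passing the test (-1.06 ± 0.38, adjusted p = 0.0556). It passed with the replicate number as a block (-1.06, adjusted p = 0.0481), with centring, voom or edgeR, and without either GFP- Pdgfrα- library (-1.06, adjusted p = 0.000722 to 0.000978), in which *Gli1* had 4 and 24 reads. A fit without both of them, chosen after seeing the data, gave an adjusted p of 0.000384, and the alternatives ranged from 0.000384 to 0.279. Between the Pdgfrα+ populations the difference did not pass the test (0.29 ± 0.38, adjusted p = 0.750).

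*Gli2* and *Gli3*, the factors that act as the main activator and the main repressor of the pathway, differed less among the 3 populations other than GFP- Pdgfrα-. *Gli2* had signals of 61.5 and 68.6 in GFP+ Pdgfrα-, 117 and 91.6 in GFP+ Pdgfrα+, 86.1 and 69.9 in GFP- Pdgfrα+ and 2.15 and 3.42 in GFP- Pdgfrα- cells. *Gli3* had signals of 78.8 and 64.96 in GFP+ Pdgfrα-, 120.0 and 107 in GFP+ Pdgfrα+, 123 and 129.6 in GFP- Pdgfrα+ and 3.88 and 5.78 in GFP- Pdgfrα- cells. For each gene the GFP- Pdgfrα- libraries lay far under every other library. Between GFP+ Pdgfrα- and GFP+ Pdgfrα+ cells, *Gli2* narrowly missed the threshold (-0.66 ± 0.22, adjusted p = 0.0503). It passed with the filter, centring, voom or edgeR, without either GFP- Pdgfrα- library (-0.66, adjusted p = 0.0194 to 0.0204), and without both of them (adjusted p = 0.0122), over a range of 0.00882 to 0.257 in the alternatives. *Gli3* was lower in GFP+ Pdgfrα- cells than in GFP+ Pdgfrα+ cells (-0.66 ± 0.20, adjusted p = 0.0311), a call lost without any 1 of the 6 libraries of the populations other than GFP- Pdgfrα- (-0.79 to -0.52, adjusted p = 0.0578 to 0.200). It was also lower in GFP+ Pdgfrα- cells than in GFP- Pdgfrα+ cells (-0.81 ± 0.20, adjusted p = 0.00892), a call lost without GFP+ Pdgfrα- replicate 2 or either GFP- Pdgfrα+ library (-0.85 to -0.68, adjusted p = 0.0525 to 0.0908).

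The genes that passed were counted over the 8 other than *Dhh*. In GFP+ Pdgfrα- over GFP+ Pdgfrα+ cells, 6 of the 8 genes passed the test as lower and 0 as higher, where 13.1% and 11.1% of all 15880 genes did, and *Gli2* and *Gas1* did not pass. In GFP+ Pdgfrα- over GFP- Pdgfrα+ cells, 5 of the 8 genes passed the test as lower and 0 as higher, where 14.3% and 13.5% of all 15880 genes did, and *Ptch1*, *Gli1* and *Gli2* did not pass. The median log2 fold change of the 8 genes was -0.996 and -1.04, beside 0.02 and 0.03 for all genes. These comparisons share the GFP+ Pdgfrα- libraries. The first count fell without any 1 of the 4 libraries compared and without either GFP- Pdgfrα+ library. The share of all genes that passed fell in these refits too. With a pseudocount of 0.1 the first count fell to 5, where 21.2% of all genes passed, against 24.2% in the main fit. The second count fell without GFP+ Pdgfrα- replicate 2 or either GFP- Pdgfrα+ library, as did the share of all genes that passed.

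Against GFP- Pdgfrα- cells most of the 8 genes were higher. For GFP+ Pdgfrα- over GFP- Pdgfrα- cells, 7 of the 8 genes passed the test as higher and 0 as lower, where 30.1% and 23.6% of all 15880 genes did, and *Ptch1* was the exception. For GFP- Pdgfrα+ over GFP- Pdgfrα- cells, 8 of the 8 genes passed the test as higher and 0 as lower, where 32.9% and 26.8% of all 15880 genes did. There the call of *Ptch1* (0.57 ± 0.16, adjusted p = 0.00962) was lost without GFP- Pdgfrα+ replicate 2 (0.57, adjusted p = 0.0517) and with centring (0.12, adjusted p = 0.555), over a range of 0.00387 to 0.555 in the alternatives. For GFP+ Pdgfrα+ over GFP- Pdgfrα- cells, 8 of the 8 genes passed the test as higher and 0 as lower, where 32.9% and 26.4% of all 15880 genes did. The medians of the 8 were 2.72, 4.46 and 4.34, beside 0.15, 0.17 and 0.20 over all genes. Centring each library on its median moved the 3 values over all genes to -0.30, -0.28 and -0.28. The share of calls that were higher then changed from 56.1%, 55.1% and 55.5% to 38.9%, 40.6% and 39.6%.

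The Pdgfrα+ populations differed in fewer of the genes. With GFP+ Pdgfrα+ over GFP- Pdgfrα+ cells, 1 of the 8 genes passed the test as higher and 2 as lower, where 3.22% and 2.13% of all genes did. *Ptch1* was the gene that was higher, and *Boc* and *Gas1* were those that were lower. The count of 3 fell without either GFP+ Pdgfrα+ library and without either GFP- Pdgfrα+ library. The share of all genes that passed fell in these refits too. The median of the 8 was 0.05, beside 0.00 over all genes. In the test of any difference among the 4 populations 8 of 8 genes passed, where 66.0% of all genes did. For 7 of the 8 genes, all but *Ptch1*, the difference between GFP+ and GFP- cells depended on the Pdgfrα class (test of the interaction), where 44.3% of all genes passed. *Ptch1* passed without GFP+ Pdgfrα+ replicate 2 (0.70, adjusted p = 0.0249) and with centring (0.90, adjusted p = 0.00629), over a range of 0.00629 to 0.412 in the alternatives. In a fit of the 3 populations without GFP- Pdgfrα- cells, chosen after seeing the data, 8 of 8 passed, where 30.8% of all genes did.

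**Figure D3:**
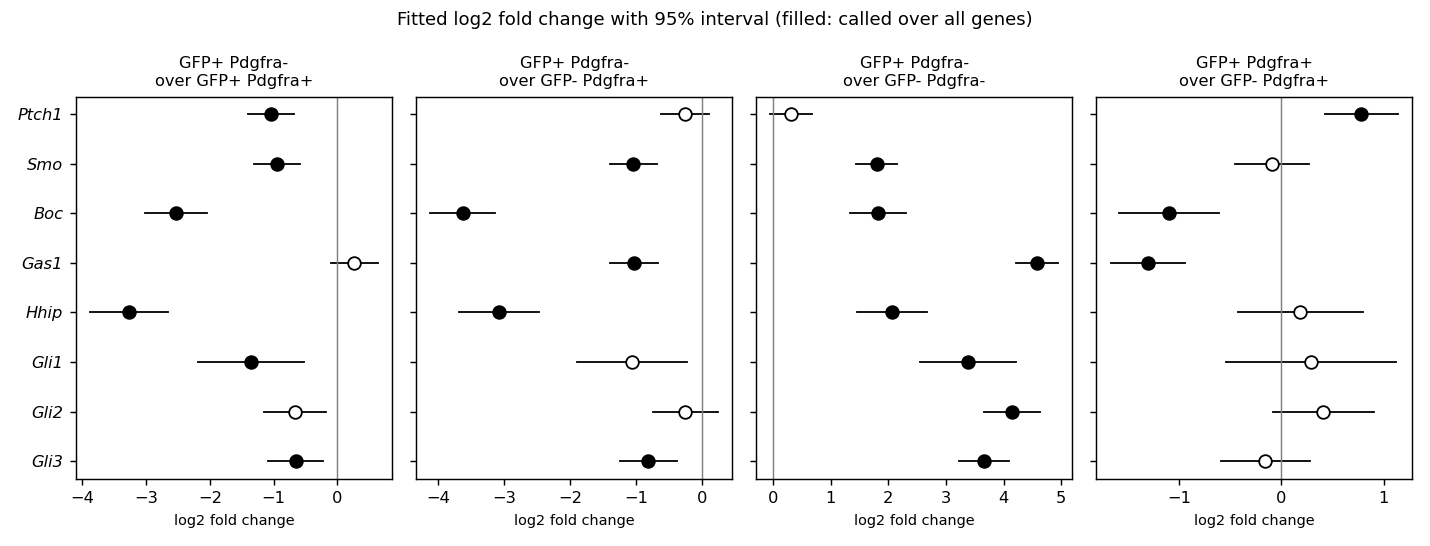
Fitted log2 fold change (horizontal axis, log2 scale) of 8 Hedgehog genes in 4 comparisons, with 95% intervals and filled circles for genes that passed the test over all genes. *Boc* and *Hhip* are lower in GFP+ Pdgfrα- cells than in either Pdgfrα+ population, while all but *Ptch1* passed the test as higher in them than in GFP- Pdgfrα- cells.

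Of 34 other genes in the pathway lists, 27 had a row and 7 were not analysed here. Set over GFP+ Pdgfrα+ cells, GFP+ Pdgfrα- cells had 1 of the 27 higher and 6 lower, where 11.1% and 13.1% of all genes were, with a median of -0.28. Over GFP- Pdgfrα+ cells they had 0 higher and 11 lower, where 13.5% and 14.3% of all genes were, with a median of -0.65. Between the Pdgfrα+ populations, GFP+ Pdgfrα+ cells had 0 higher and 3 lower, where 3.22% and 2.13% of all genes were, with a median of -0.17. *Cdon*, *Scube2* and *Foxf2* were the 3 lower ones. The call of *Scube2* was lost without GFP+ Pdgfrα+ replicate 1 or GFP- Pdgfrα+ replicate 1 (-1.96 to -1.71, adjusted p = 0.0570 to 0.0862) and that of *Foxf2* without either GFP+ Pdgfrα- library, either GFP+ Pdgfrα+ library, GFP- Pdgfrα+ replicate 1 or either GFP- Pdgfrα- library (-1.54 to -1.03, adjusted p = 0.0582 to 0.266). The call of *Foxf2* was also lost with a pseudocount of 0.1 (-3.27, adjusted p = 0.0559), with edgeR (-6.18, adjusted p = 0.109) and without both GFP- Pdgfrα- libraries (-1.53, adjusted p = 0.0551).

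Of 5 receptors and coreceptors, the 4 among the 9 genes are described above. *Cdon*, a coreceptor gene related to *Boc*, had signals of 228 and 248 in GFP+ Pdgfrα-, 265 and 314 in GFP+ Pdgfrα+, 683 and 608 in GFP- Pdgfrα+ and 7.32 and 7.19 in GFP- Pdgfrα- cells. It was highest in GFP- Pdgfrα+ cells, and lower in GFP+ Pdgfrα+ cells than in them (-1.16 ± 0.14, adjusted p = 0.000584). *Lrp2* was not analysed here.

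Of 4 genes for ligand lipidation and release, 2 were lower in GFP+ Pdgfrα- over GFP+ Pdgfrα+ cells and 2 in GFP+ Pdgfrα- over GFP- Pdgfrα+ cells, where 13.1% and 14.3% of all genes were. In the second comparison 4 of the 4 passed with voom and 2 with edgeR, where 28.1% and 26.3% of all genes did. In the first, 2 passed with each, where 24.4% and 22.6% of all genes did. *Scube2*, which encodes a secreted protein that helps free lipid-modified Hedgehog from cells, had signals of 3.28 and 5.02 in GFP+ Pdgfrα-, 21.4 and 39.8 in GFP+ Pdgfrα+, 150.4 and 116 in GFP- Pdgfrα+ and 4.45 and 8.37 in GFP- Pdgfrα- cells. It was lower in GFP+ Pdgfrα- cells than in GFP+ Pdgfrα+ cells (-2.58 ± 0.35, adjusted p = 0.000252) and than in GFP- Pdgfrα+ cells (-4.72 ± 0.35, adjusted p = 1.48e-06), and its GFP+ Pdgfrα- libraries overlapped those of GFP- Pdgfrα- cells. *Hhat*, the acyltransferase gene that palmitoylates the ligand, had signals of 6.43 and 10.9 in GFP+ Pdgfrα-, 14.8 and 15.1 in GFP+ Pdgfrα+, 17.8 and 16.2 in GFP- Pdgfrα+ and 3.59 and 5.31 in GFP- Pdgfrα- cells. Its differences of GFP+ Pdgfrα- cells from GFP+ Pdgfrα+ (-0.76 ± 0.34, adjusted p = 0.129) and GFP- Pdgfrα+ cells (-0.93 ± 0.34, adjusted p = 0.0589) did not pass the test. *Scube3*, at 7.90 and 9.55 in GFP- Pdgfrα- cells and 16.6 to 49.7 in the 6 other libraries, was lower in GFP+ Pdgfrα- cells than in GFP- Pdgfrα+ cells (-1.11 ± 0.26, adjusted p = 0.00720), a call lost without GFP+ Pdgfrα- replicate 1 or GFP- Pdgfrα+ replicate 2 (-0.97 to -0.82, adjusted p = 0.0799 to 0.0878). *Scube1*, at 1.29 and 4.36 in GFP- Pdgfrα- cells and 3.73 to 13.5 in the 6 other libraries, was lower in GFP+ Pdgfrα- cells than in GFP+ Pdgfrα+ cells (-1.36 ± 0.43, adjusted p = 0.0393). That call was lost without either GFP+ Pdgfrα- library, either GFP+ Pdgfrα+ library or either GFP- Pdgfrα+ library (-1.56 to -1.17, adjusted p = 0.0584 to 0.202) and with a pseudocount of 0.1 (-1.53, adjusted p = 0.0787), over a range of 0.0134 to 0.202 in the alternatives. *Disp1* and *Disp2* were not analysed here.

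*Gpc3*, a glypican gene whose product competes with Ptch1 for the ligand, had signals of 278 and 282 in GFP+ Pdgfrα-, 475 and 611 in GFP+ Pdgfrα+, 651 and 651 in GFP- Pdgfrα+ and 7.61 and 8.14 in GFP- Pdgfrα- cells. Both Pdgfrα+ populations exceeded GFP+ Pdgfrα- cells, which were lower than GFP+ Pdgfrα+ cells (-0.94 ± 0.14, adjusted p = 0.000483) and than GFP- Pdgfrα+ cells (-1.22 ± 0.14, adjusted p = 5.5e-05). Of 11 cytoplasmic and ciliary regulators, 2 were lower and 1 was higher in GFP+ Pdgfrα- over GFP+ Pdgfrα+ cells, where 13.1% and 11.1% of all genes were. The lower ones were *Evc* and *Evc2*, whose products act with Smo at the base of the cilium. *Evc* had signals of 10.6 and 11.7 in GFP+ Pdgfrα-, 38.3 and 34.6 in GFP+ Pdgfrα+, 39.5 and 37.3 in GFP- Pdgfrα+ and 1.29 and 0.354 in GFP- Pdgfrα- cells (GFP+ Pdgfrα- over GFP+ Pdgfrα+, -1.63 ± 0.31, adjusted p = 0.00257). *Evc2* had signals of 9.35 and 15.6 in GFP+ Pdgfrα-, 38.0 and 30.3 in GFP+ Pdgfrα+, 38.7 and 37.6 in GFP- Pdgfrα+ and 1.01 and 1.53 in GFP- Pdgfrα- cells (GFP+ Pdgfrα- over GFP+ Pdgfrα+, -1.42 ± 0.31, adjusted p = 0.00579), and this call was lost without GFP+ Pdgfrα- replicate 1 or GFP+ Pdgfrα+ replicate 1 (-1.26 to -1.08, adjusted p = 0.0512 to 0.0724). The higher one was *Prkaca*, a catalytic subunit of protein kinase A, which restrains the pathway (0.77 ± 0.23, adjusted p = 0.0317), with signals of 81.9 and 105 in GFP+ Pdgfrα-, 55.1 and 52.8 in GFP+ Pdgfrα+, 64.4 and 54.2 in GFP- Pdgfrα+ and 28.9 and 49.4 in GFP- Pdgfrα- cells. That call was lost without either GFP+ Pdgfrα- library, either GFP+ Pdgfrα+ library or either GFP- Pdgfrα+ library (0.60 to 0.95, adjusted p = 0.0522 to 0.227). Over GFP- Pdgfrα+ cells, GFP+ Pdgfrα- cells had 3 of the 11 lower, where 14.3% of all genes were.

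*Sufu*, the gene of a protein that holds back Gli factors, had signals of 33.9 and 37.4 in GFP+ Pdgfrα-, 42.9 and 35.5 in GFP+ Pdgfrα+, 30.9 and 32.2 in GFP- Pdgfrα+ and 23.7 and 26.5 in GFP- Pdgfrα- cells. No difference of *Sufu* between GFP+ Pdgfrα- and a Pdgfrα+ population passed the test (GFP+ Pdgfrα+, -0.13 ± 0.20, adjusted p = 0.685, and GFP- Pdgfrα+, 0.17 ± 0.20, adjusted p = 0.576). *Spop*, the most abundant regulator of its list in GFP+ Pdgfrα- cells, had signals of 149.7 and 128 in GFP+ Pdgfrα-, 110.1 and 117 in GFP+ Pdgfrα+, 109.8 and 140.0 in GFP- Pdgfrα+ and 107 and 105 in GFP- Pdgfrα- cells. *Btrc*, which encodes a ubiquitin ligase subunit that acts on Gli proteins, had its highest values in GFP- Pdgfrα- cells, with 24.4 and 32.0 in GFP+ Pdgfrα-, 24.4 and 30.0 in GFP+ Pdgfrα+, 24.1 and 34.3 in GFP- Pdgfrα+ and 49.0 and 72.0 in GFP- Pdgfrα- cells. It was lower in GFP+ Pdgfrα- cells than in GFP- Pdgfrα- cells (-1.06 ± 0.25, adjusted p = 0.00376). *Iqce*, which encodes a partner of the Evc proteins, was at 3.02 and 5.07 in GFP- Pdgfrα- cells and 11.05 to 41.4 in the 6 other libraries. *Iqce* was lower in GFP+ Pdgfrα- cells than in GFP- Pdgfrα+ cells (-1.39 ± 0.34, adjusted p = 0.00871), a call lost without GFP+ Pdgfrα- replicate 1 or GFP- Pdgfrα+ replicate 2 (-1.20 to -1.15, adjusted p = 0.0953 to 0.0981). *Kif7*, a kinesin gene of the cilium tip, was at 1.01 and 2.24 in GFP- Pdgfrα- cells and 10.2 to 18.1 in the 6 other libraries. *Stk36*, a kinase gene, was at 0.144 and 0.590 in GFP- Pdgfrα- cells and 3.73 to 9.92 in the 6 other libraries, and *Gpr161*, a ciliary receptor gene, at 0.144 and 0.825 in GFP- Pdgfrα- cells and 2.70 to 7.91 in the 6 other libraries.

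Of 8 genes of ciliary transport, 0 passed the limma test in GFP+ Pdgfrα- over GFP+ Pdgfrα+ cells, with 1 at an unadjusted p under 0.05, 0 with voom and 0 with edgeR. Of all genes, 24.2% passed there with limma, 35.4% had an unadjusted p under 0.05, 24.4% passed with voom and 22.6% with edgeR. Over GFP- Pdgfrα+ cells, 2, *Arl13b* and *Tulp3*, were lower in GFP+ Pdgfrα- cells, where 14.3% of all genes were. *Arl13b* had signals of 22.5 and 27.7 in GFP+ Pdgfrα-, 30.0 and 37.8 in GFP+ Pdgfrα+, 37.9 and 41.7 in GFP- Pdgfrα+ and 9.62 and 9.79 in GFP- Pdgfrα- cells (GFP+ Pdgfrα- over GFP- Pdgfrα+, -0.65 ± 0.22, adjusted p = 0.0480), a call lost without either GFP+ Pdgfrα- library or either GFP- Pdgfrα+ library (-0.80 to -0.51, adjusted p = 0.0736 to 0.247), with a pseudocount of 0.1 (-0.67, adjusted p = 0.0566) and with centring (-0.66, adjusted p = 0.0503). *Tulp3* had signals of 29.0 and 36.1 in GFP+ Pdgfrα-, 35.5 and 43.0 in GFP+ Pdgfrα+, 56.4 and 53.3 in GFP- Pdgfrα+ and 3.30 and 2.00 in GFP- Pdgfrα- cells (GFP+ Pdgfrα- over GFP- Pdgfrα+, -0.74 ± 0.25, adjusted p = 0.0466), a call lost without either GFP+ Pdgfrα- library, either GFP+ Pdgfrα+ library or either GFP- Pdgfrα+ library (-0.89 to -0.59, adjusted p = 0.0549 to 0.254), and with a pseudocount of 0.1, centring or the replicate block. Over the alternatives the adjusted p ranged from 0.0291 to 0.247 for *Arl13b* and from 0.00834 to 0.254 for *Tulp3*. In GFP+ Pdgfrα- over GFP- Pdgfrα- cells, 7 of the 8 were higher and *Ift80* was lower (-0.83 ± 0.27, adjusted p = 0.0209), where 30.1% and 23.6% of all genes were higher and lower. The call of *Ift80* was lost without either GFP+ Pdgfrα- library or GFP- Pdgfrα- replicate 1 (-0.88 to -0.71, adjusted p = 0.0760 to 0.105). Its signal was 58.2 and 48.9 in GFP- Pdgfrα- cells and 19.8 to 35.7 in the 6 other libraries. *Ift88* was at 6.18 and 5.07 in GFP- Pdgfrα- cells and 10.9 to 19.5 in the 6 other libraries, *Ift172* at 6.75 and 9.79 in GFP- Pdgfrα- cells and 35.2 to 41.0 in the 6 other libraries and *Ift122* at 2.15 and 1.30 in GFP- Pdgfrα- cells and 7.16 to 19.8 in the 6 other libraries. The motor genes *Kif3a* and *Dync2h1* were at 32.0 and 25.4 in GFP- Pdgfrα- cells and 41.8 to 71.6 in the 6 other libraries, and at 37.2 and 40.2 in GFP- Pdgfrα- cells and 53.6 to 73.7 in the 6 other libraries. The call of *Dync2h1* in GFP+ Pdgfrα- over GFP- Pdgfrα- cells was lost without GFP+ Pdgfrα- replicate 1 (0.46, adjusted p = 0.0914) and with centring.

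Of 5 pathway response genes, 4 were lower in GFP+ Pdgfrα- cells than in GFP+ Pdgfrα+ cells and 3 were lower than in GFP- Pdgfrα+ cells, where 13.1% and 14.3% of all genes were. The list holds *Ptch1*, *Gli1* and *Hhip*, which are counted above, beside *Foxf2* and *Pthlh*. *Pthlh*, the parathyroid hormone-like hormone gene, had signals of 0.607 and 0.129 in GFP+ Pdgfrα-, 1.52 and 2.73 in GFP+ Pdgfrα+, 4.41 and 5.197 in GFP- Pdgfrα+ and 0.144 and 0.118 in GFP- Pdgfrα- cells. Its values in GFP+ Pdgfrα- cells were lower than in GFP+ Pdgfrα+ cells (-1.19 ± 0.39, adjusted p = 0.0434), a call lost without either GFP+ Pdgfrα- library, GFP+ Pdgfrα+ replicate 2, either GFP- Pdgfrα+ library or either GFP- Pdgfrα- library (-1.44 to -0.90, adjusted p = 0.0527 to 0.220). The call was also lost with centring, the replicate block, voom, edgeR and without both GFP- Pdgfrα- libraries, over a range of 0.0380 to 0.220. *Foxf2*, a forkhead factor gene, had signals of 0.121 and 0.386 in GFP+ Pdgfrα-, 0.138 and 0.144 in GFP+ Pdgfrα+, 3.66 and 1.34 in GFP- Pdgfrα+ and 0.144 and 0.118 in GFP- Pdgfrα- cells, so that only GFP- Pdgfrα+ cells exceeded 3 reads. Its call in GFP+ Pdgfrα- over GFP- Pdgfrα+ cells was lost without either GFP+ Pdgfrα- library or GFP- Pdgfrα+ replicate 1 (-1.56 to -0.91, adjusted p = 0.0521 to 0.143) and with edgeR. *Foxf1* and *Foxl1* were not analysed here.

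Perineurial, osteoblast and chondrocyte markers were set beside these genes. The 3 perineurial markers summed to 168 and 173 in GFP+ Pdgfrα-, 334 and 315 in GFP+ Pdgfrα+, 225 and 211 in GFP- Pdgfrα+ and 116 and 113 in GFP- Pdgfrα- cells, with *Tjp1* the most abundant, and *Cldn1* at or under 3 reads in 1 GFP- Pdgfrα- library. *Cldn1*, a tight junction gene of the perineurium, had signals of 3.52 and 3.99 in GFP+ Pdgfrα-, 126 and 119 in GFP+ Pdgfrα+, 37.2 and 26.9 in GFP- Pdgfrα+ and 0.431 and 1.77 in GFP- Pdgfrα- cells. It was the only 1 of the 3 that passed the test between GFP+ Pdgfrα- and a Pdgfrα+ population, where 24.2% (GFP+ Pdgfrα+) and 27.9% (GFP- Pdgfrα+) of all genes did. *Slc2a1*, the glucose transporter gene of the list, ran another way and was highest in GFP- Pdgfrα- cells, with 9.11 and 8.36 in GFP+ Pdgfrα-, 13.7 and 11.6 in GFP+ Pdgfrα+, 10.7 and 16.2 in GFP- Pdgfrα+ and 27.7 and 19.7 in GFP- Pdgfrα- cells. The 5 osteoblast markers summed to 244 and 218 in GFP+ Pdgfrα-, 3446 and 2367 in GFP+ Pdgfrα+, 158 and 128 in GFP- Pdgfrα+ and 22.0 and 29.6 in GFP- Pdgfrα- cells, with *Ibsp* the most abundant in GFP+ cells and *Bglap* at or under 3 reads in both GFP- Pdgfrα- libraries. The 6 chondrocyte markers with a row summed to 80.6 and 123 in GFP+ Pdgfrα-, 315 and 373 in GFP+ Pdgfrα+, 549.9 and 1882 in GFP- Pdgfrα+ and 545 and 964 in GFP- Pdgfrα- cells, with *Col2a1* the most abundant in GFP+ Pdgfrα+, GFP- Pdgfrα+ and GFP- Pdgfrα- libraries and *Matn1* at or under 3 reads in the 6 libraries other than GFP- Pdgfrα-. The 5 endothelial markers summed to 45.3 and 92.2 in GFP+ Pdgfrα-, 47.6 and 69.4 in GFP+ Pdgfrα+, 49.0 and 51.2 in GFP- Pdgfrα+ and 30.6 and 113 in GFP- Pdgfrα- cells, with *Tek* the most abundant in GFP+ Pdgfrα- and GFP- Pdgfrα+ cells and *Emcn* at or under 3 reads in both GFP- Pdgfrα+ libraries. The part of these cell types in the Hedgehog differences was not tested.

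The genes most like *Dhh* were taken by the Pearson correlation of log2(signal + 1) over the 8 libraries, among 11004 genes with a mean signal of at least 5, as a description. They were *Gjc3* (0.995), *Arpp21* (0.993), *Lgi4* (0.984), *Hs6st2* (0.982) and *Pde1c* (0.982). The gap-junction gene *Gjc3*, first of them, had mean signals of 80.8 in GFP+ Pdgfrα-, 14.0 in GFP+ Pdgfrα+, 3.14 in GFP- Pdgfrα+ and 4.19 in GFP- Pdgfrα- cells. *Sox10* ranked 9 and the muscle precursor gene *Pax7* ranked 23 (correlations 0.979 and 0.969). The 8 libraries fall into 4 populations.

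The genes most like *Gli1* were *Uggt2* (0.997), *Stox2* (0.997), *Fmnl3* (0.997), *Peli2* (0.996) and *Sdc2* (0.996). Among the 9 Hedgehog genes, *Smo* ranked 132 and *Gli3* 184 (correlations 0.982 and 0.979). *Ptch1* ranked 3400 (0.733) and *Dhh* ranked 4954 (0.285).

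The letters GACCACCCA, the core that Gli factors bind, were searched on both strands in the 2000 bases before each gene's annotated start in build NCBIM37. This search was chosen after seeing the data. They occurred once for *Ptch1*, that is for 1 of the 9 genes and for 1 of the 36 pathway genes counted here. A match was found for 221 of 14110 protein-coding genes (1.57%). The window of *Ptch1* (chr13:63674763-63674791, minus strand, as read along the gene) is shown because it holds the letters. They stand in capitals and lie 299 bases before the start. A match describes the sequence only.
*Ptch1*: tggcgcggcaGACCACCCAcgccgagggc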

How the data were processed

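RNA of 8 sorted libraries was measured by sequencing of amplified cDNA. Per the study's methods, the authors trimmed reads with cutadapt, quantified them with RSEM 1.17 on NCBIM37, kept genes above a minimum of scaled counts and normalized with limma. Picard is also named in the submitters' processing notes. The deposited signal is linear, and 100% of its values gave whole reads within a tolerance of 0.05 reads. Of 15880 identifiers, 15849 matched the GENCODE annotation of that build.

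The log2(signal + 1) values of all genes entered limma (version 3.58.1, under R 4.3.3), with a mean-variance trend, a coefficient for each population and no block, which leaves 4 residual degrees of freedom. P-values were adjusted by Benjamini–Hochberg over all 15880 genes, and genes were called at an adjusted p of at most 0.05. The fits were tested on simulated data. With 2 libraries against 2, an exact permutation test cannot go below 0.333, so none was used. Tables used pandas 2.3.3 and numpy 2.4.6 under Python 3.11.15, intervals scipy 1.17.1 and figures matplotlib 3.10.9.

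Named genes were the 9 members, the other pathway genes by counts with values for those whose call differs among comparisons or that are extreme in their list, the marker lists, and the 5 genes most like *Dhh* and *Gli1*. Members and lists were chosen with earlier results of these data known. The counts of called members were planned over the 9, and are given over the 8 other than *Dhh*. Besides the 7 pathway genes without a row, 2 genes with a row were left out of the lists and their counts. Alternatives were a pseudocount of 0.1, a filter at a signal over 2 in at least 2 libraries, centring on library medians, the replicate number as a block, limma voom and edgeR 4.0.16 on the recovered reads, and leaving out each library. A fit without the GFP- Pdgfrα- libraries was chosen after seeing the data.

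The methods describe each set of samples as bones pooled from littermates, and the replicate number was taken to mark a shared pool and was fitted as a block among the alternatives. After subtracting each population's mean, libraries with the same number correlated at 0.00433 to 0.0812 over the pairs of populations.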

Additional observations from a re-analysis of the deposited data

Results flagged for a closer look

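The difference between GFP+ and GFP- cells was not the same in Pdgfrα+ and Pdgfrα- cells for 7 of the 8 genes other than *Dhh*, where 44.3% of all 15880 genes passed the same limma test of the interaction. On the log2 scale, the GFP effect in Pdgfrα+ cells minus that in Pdgfrα- cells was -1.89 for *Smo* (adjusted p = 4.16e-05), -3.09 for *Gli1* (adjusted p = 0.000564), -3.73 for *Gli2* (adjusted p = 2.23e-06), -3.81 for *Gli3* (adjusted p = 7.01e-07), -1.87 for *Hhip* (adjusted p = 0.00222), -2.92 for *Boc* (adjusted p = 1.46e-05) and -5.88 for *Gas1* (adjusted p = 9.45e-09). *Ptch1* did not pass (0.47, adjusted p = 0.121). The Pdgfrα- side of each value rests on the GFP- Pdgfrα- libraries, which carry the globin reads. *Ptch1* passed without GFP+ Pdgfrα+ replicate 2 (0.70, adjusted p = 0.0249) and with centring (0.90, adjusted p = 0.00629), over a range of 0.00629 to 0.412.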

How the results depend on the processing

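Of 808 refits of the fold changes and interactions of the 8 genes other than *Dhh*, 768 kept their direction and side of the threshold, 23 lost the call, 16 gained it and 1 turned direction. The 1 that turned was not called, *Ptch1* in GFP+ Pdgfrα- over GFP- Pdgfrα- cells with centring (-0.14). As a description, the log2 fold change of *Dhh* in GFP- Pdgfrα+ over GFP- Pdgfrα- cells was 0.0029 in the main fit, on 6 reads in each population. It also turned, with a pseudocount of 0.1 (-0.35), with centring (-0.45), with voom (-0.78), without GFP- Pdgfrα+ replicate 2 and without GFP- Pdgfrα- replicate 1. Leaving out 1 library at a time, this value of *Dhh* ranged from -0.69 to 0.69. The cause was not tested.

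Leaving out 1 library at a time, with a lone library assumed to vary like the others, the genes called of the 8 other than *Dhh* numbered 4 to 7 in GFP+ Pdgfrα- over GFP+ Pdgfrα+, 4 to 6 in GFP+ Pdgfrα- over GFP- Pdgfrα+, 1 to 3 in GFP+ Pdgfrα+ over GFP- Pdgfrα+, 7 in GFP+ Pdgfrα- over GFP- Pdgfrα-, 7 to 8 in GFP- Pdgfrα+ over GFP- Pdgfrα- and 8 in GFP+ Pdgfrα+ over GFP- Pdgfrα- cells, 8 for any difference and 7 to 8 for the interaction. For each pair of populations, the share of all genes that passed also fell without any 1 of the 4 libraries compared. With the replicate block the pairing gave 6 called genes in GFP+ Pdgfrα- over GFP- Pdgfrα+ cells, where *Gli1* was gained, and it changed no other call of the 8. In that comparison 28.5% of all genes passed with the block, against 27.9% in the main fit. Of 1236 refits of called fold changes of the other pathway genes, 1146 kept the call, 90 lost it and 0 turned. EdgeR on the recovered reads called 3586 of all genes in GFP+ Pdgfrα- over GFP+ Pdgfrα+ cells.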
